A study of Mus musculus with 4 samples.

Results

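Cytosolic ribosomal proteins are the protein components of the ribosomes that translate nuclear-encoded mRNAs. They were taken as the genes whose symbol starts with Rpl (large subunit) or Rps (small subunit) followed by a number, by p and a number, or by a in Rpsa, leaving out the S6 kinases (Rps6k), the Rps19 binding protein and symbols of pseudogenes. A total of 87 of the 24421 genes in the table met this rule, 53 of the large and 34 of the small subunit. Of these, 77 were standard ribosomal proteins and 10 were variant copies, genes for a close relative of a standard protein. RNA came from liver of hepatectomized mice, with 2 libraries of mice that received fibrin gel alone (control) and 2 of mice that received ADSC embedded in fibrin gel (gelADSC). ADSC are adipose-derived stem cells. All animals had thus been hepatectomized and given fibrin gel. The sources used here give no strain, age, sex, time after surgery or origin of the cells. They do not say whether the libraries of a group came from separate animals, so p-values may measure only technical spread. The control libraries are called 1 and 3 and the gelADSC libraries 2 and 3, after the numbers in the table.

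A ribosome carries a single copy of most of its proteins, and a growing cell spends a large part of its transcription and translation on making them. Their mRNAs begin with a C followed by a run of pyrimidines, the 5′ terminal oligopyrimidine (TOP) motif, through which LARP1 and the kinase mTOR set how well they are translated and how long they persist. In liver regrowth after hepatectomy, hepatocytes make new ribosomes before and while they divide. Free RPL5 and RPL11 bind MDM2 when assembly fails, which ties ribosomal proteins to p53.

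Annotated starts of ribosomal protein genes are shown first, because the TOP run is the feature the family is known for. Each window covers 10 bases before and 20 bases from the annotated start of RefSeq (GRCm38.p6), read 5′ to 3′ on the strand of the gene. Capitals mark a C followed by at least 4 pyrimidines, the C lying within 5 bases of the start. The first 4 genes had log2 changes of -1.17 or lower in gelADSC, the next 3 were among those with the smallest changes, and the last 2 held no such run. Rpl35a has 3 annotated starts, and only the 1 that holds a run is shown.
Rpl14 (chr9:120571507-120571536, + strand): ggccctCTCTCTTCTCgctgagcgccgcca
Rpl22l1 (chr3:28805498-28805527, + strand): gcgcaagcccgttCTCTTCCCacggctgca
Rplp2 (chr7:141447641-141447670, + strand): cagcgtCTTCCTTTCgccgccggacgccgc
Rps6 (chr4:86857348-86857377, - strand): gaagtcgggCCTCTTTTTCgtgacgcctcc
Rps27 (chr3:90213629-90213658, - strand): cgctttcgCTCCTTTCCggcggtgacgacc
Rpl27a (chr7:109519185-109519214, + strand): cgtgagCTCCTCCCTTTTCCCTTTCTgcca
Rpl35a (chr16:33056472-33056501, + strand): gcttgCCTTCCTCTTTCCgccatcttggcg
Rps4x (chrX:102189372-102189401, - strand): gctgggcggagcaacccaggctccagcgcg
Rpl36al (chr12:69184048-69184077, - strand): ccgtcgctcaggttcagttccgacttccgc

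Such a run was found at 1 or more annotated starts of 30 of the 66 members in the promoter table (45.5%), against 2000 of 8412 tested genes in it (23.8%). The ETS core CCGGAAG, searched on both strands from 250 bases before to 50 bases after the start, was present in 39.4% of members and 20.9% of tested genes. The YY1 core AAGATGG, searched likewise, was present in 15.2% of members and 8.79% of tested genes. Within the family the 29 tested members with a run had a median log2 change of -0.88, and the 32 without one had -0.97. A member without a match may still hold a run at its start in liver. This split therefore cannot show whether the run goes with the size of the change. With the ETS core the median was -0.95 in 24 tested members, and without it -0.95 in 37. With the YY1 core it was -0.74 in 10, and without it -0.97 in 51. These differences were not tested. A match describes these letters at an annotated start, and annotated starts can lie some bases from the start in liver.

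Ribosomal protein transcripts were lower in gelADSC in both subunits. Values are FPKM (fragment counts scaled by transcript length and by library depth), and changes are differences of mean log2(FPKM + 1), gelADSC minus control, tested with limma over all genes that averaged 1 FPKM or more. Of the 87 members 81 passed that filter. A total of 67 of them fell at an adjusted p under 0.05 and 0 rose, where 17.5% of all tested genes fell and 6.92% rose. At an unadjusted p under 0.05 the count of higher members was also 0. In the large subunit 39 of 48 tested genes fell, with a median log2 change of -0.92, and in the small subunit 28 of 33 fell, with a median of -0.95. The median of all tested genes was -0.25, so the members lay 0.67 further down than the typical gene (median relative to all genes -0.67). The control mean was at least 2 times the gelADSC mean for 33 of the 81 tested members, and the median ratio was 1.96. In whole liver, fewer cells of a type and less RNA per cell cannot be told apart.

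**Figure D1:**
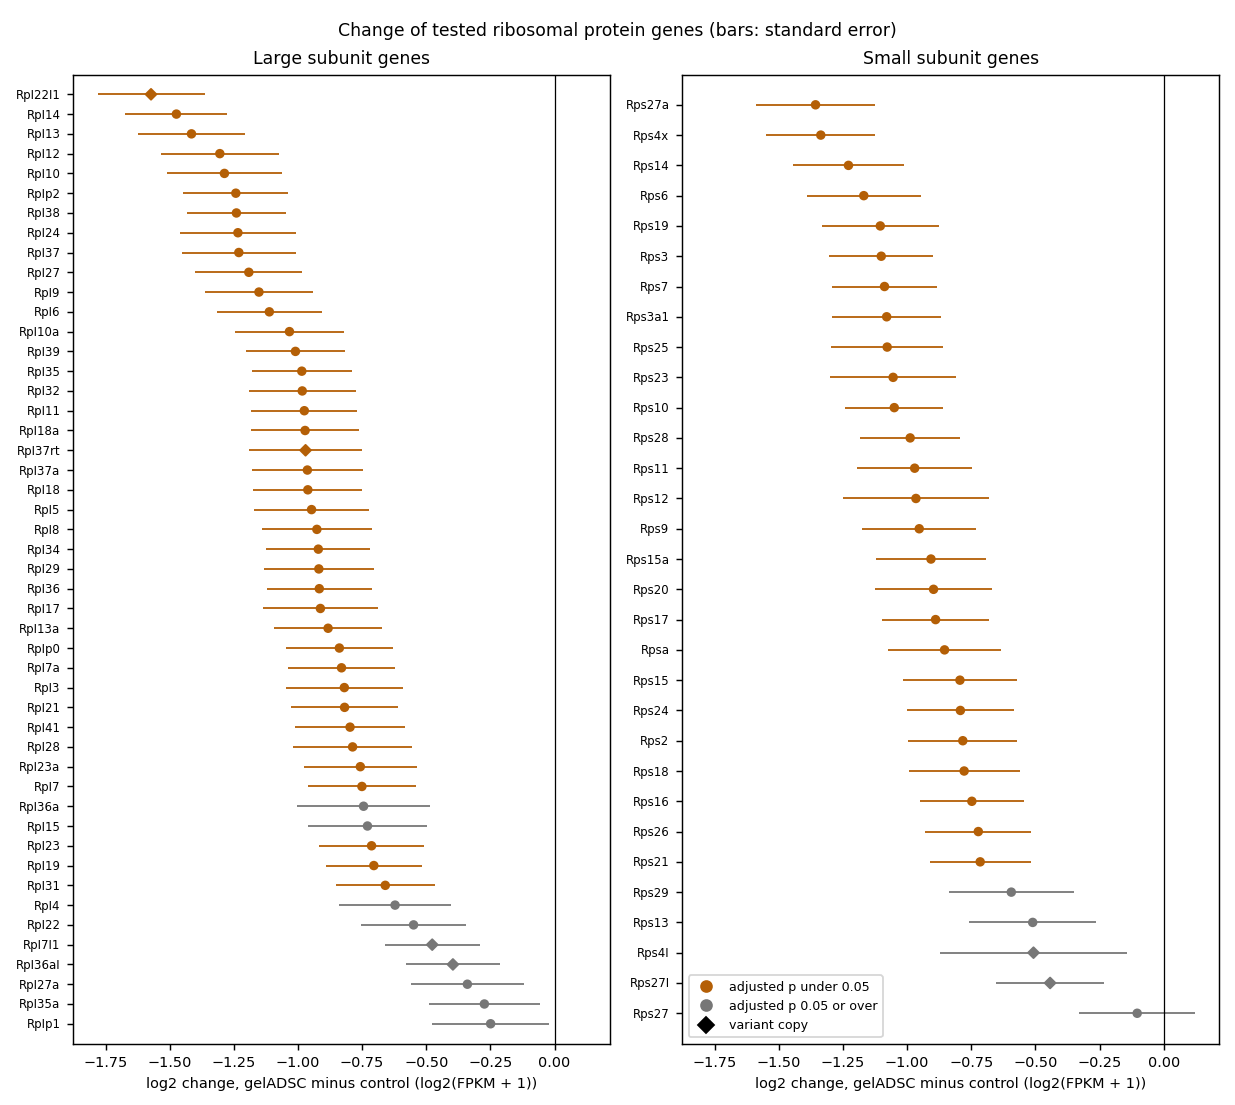
Log2 change (x axis, gelADSC minus control on the log2(FPKM + 1) scale) of 79 of the 81 tested ribosomal protein genes, with the large subunit on the left and the small subunit on the right; bars are standard errors from limma with n = 2 libraries per group. All genes shown lie below 0, from -1.57 for Rpl22l1 to -0.10 for Rps27, and orange points passed the test.

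The calls leaned on control library 1, in which the family was highest. Without it 4 of 81 members fell, among them Rpl22l1, Rpl14 and Rpl13, and 0 rose, where 2.94% of all tested genes fell and 2.52% rose. The medians were then -0.73 in both subunits. Without gelADSC library 2, 40 members fell and 0 rose, where 11.0% of all tested genes fell and 7.36% rose. Scaling mattered as well. Median ratio scaling moved the median of all tested genes from -0.25 to -0.0013, and 36 members then fell and 0 rose, where 8.56% of all tested genes fell and 8.60% rose. Quantile normalization left 40 members lower and 0 higher, where 9.03% of all tested genes fell and 8.41% rose. The subunit medians under median ratio scaling were -0.64 and -0.66.

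The standard deviation of the log2 change was 0.29 across the 81 tested members and 0.77 across all tested genes. It was as small in related lists, with 0.28 across mitochondrial ribosomal proteins and 0.24 across other TOP mRNAs. The groups did not overlap for 78 of the 81, all lower in gelADSC, where 50.5% of all tested genes were lower and 19.2% higher without overlap. The family also differed within the groups. Control library 1 read above control library 3 by a median of 0.39 on the log2 scale (library 3 minus library 1, -0.39), and gelADSC library 3 read above library 2 by a median of 0.17. Across all tested genes these within-group medians were -0.21 and 0.10. The order control 1, control 3, gelADSC 3, gelADSC 2 held for 68 of 81 members and for 31.6% of all tested genes. Since genes of a library share its composition and scaling, these counts describe 4 libraries and are not independent results.

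**Figure D2:**
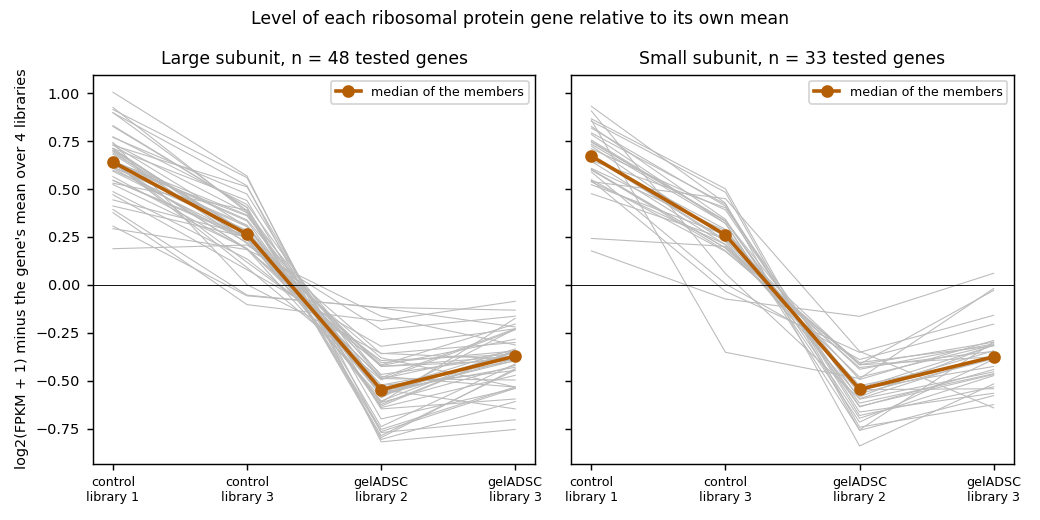
Level of each tested gene on the log2(FPKM + 1) scale relative to its own mean over the 4 libraries (y axis) in each library (x axis); a grey line joins the values of 1 gene, and the orange line is the median of the 48 large (left) or 33 small (right) subunit genes. The highest median is in control library 1 and the lowest in gelADSC library 2.

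In total the 87 genes held 3.56% and 2.79% of the summed FPKM of control libraries 1 and 3, and 1.62% and 1.87% of gelADSC libraries 2 and 3. Both control libraries lay above both gelADSC libraries. Leaving the albumin transcript out of the total gave 3.76% and 2.97% against 1.70% and 2.02%. These are shares of length-scaled values, not of reads. The summed large subunit values over the summed small subunit values came to 1.12 and 1.14 in the controls and 1.26 and 1.21 in gelADSC. Without Rplp1, left out after its values were seen, the same ratio was 0.974 and 0.995 in the controls and 1.00 and 0.986 in gelADSC, with overlapping groups.

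Levels differed far more between members than between groups. The control mean ranged from 2.41 FPKM for Rps27 to 1135 FPKM for Rplp1 among tested members, with a median of 127 FPKM, although the proteins are needed in nearly equal numbers. Of the large subunit Rplp1, Rpl41 and Rpl8 had the highest means over all libraries, and of the small subunit Rps9, Rps2 and Rps15. Rpl41, the smallest ribosomal protein, read 903 and 737 FPKM in control (libraries 1 and 3 throughout) against 460.3 and 478 FPKM in gelADSC (libraries 2 and 3). Rps9, which lines the path of the mRNA into the small subunit, read 777 and 599 FPKM in control against 331 and 375 FPKM in gelADSC. Rpl8, which lies close to the peptidyl transferase centre, had 731 and 592 FPKM against 324 and 369 FPKM. Rps2, at the mRNA entry, had 721 and 601 FPKM against 356 and 410.2 FPKM, and Rps15, which reaches into the decoding site, 577 and 434 FPKM against 272 and 305 FPKM. These 5 genes were called lower, and their groups did not overlap, where 50.5% of all tested genes were lower without overlap. The groups of Rplp1, the most abundant, did not overlap either, but it was not called (log2 change -0.25, limma adjusted p = 0.443).

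At the other end, 6 members were not tested. Rpl26, a standard protein at the exit of the peptide tunnel, was listed at 0 in all 4 libraries, as were the variant copies Rpl10l and Rps27rt. An exact 0 for a protein that every ribosome carries can be a failed estimate, so no level is read from it. Rpl30 read 1.60 and 0.882 FPKM in control against 0.196 and 1.11 FPKM in gelADSC, without separation of the groups. The variant copies Rpl3l and Rpl39l stayed at or under 0.128 FPKM in every library. A single read in a transcript of 500 bases was worth between 0.0820 and 0.111 FPKM.

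**Figure D3:**
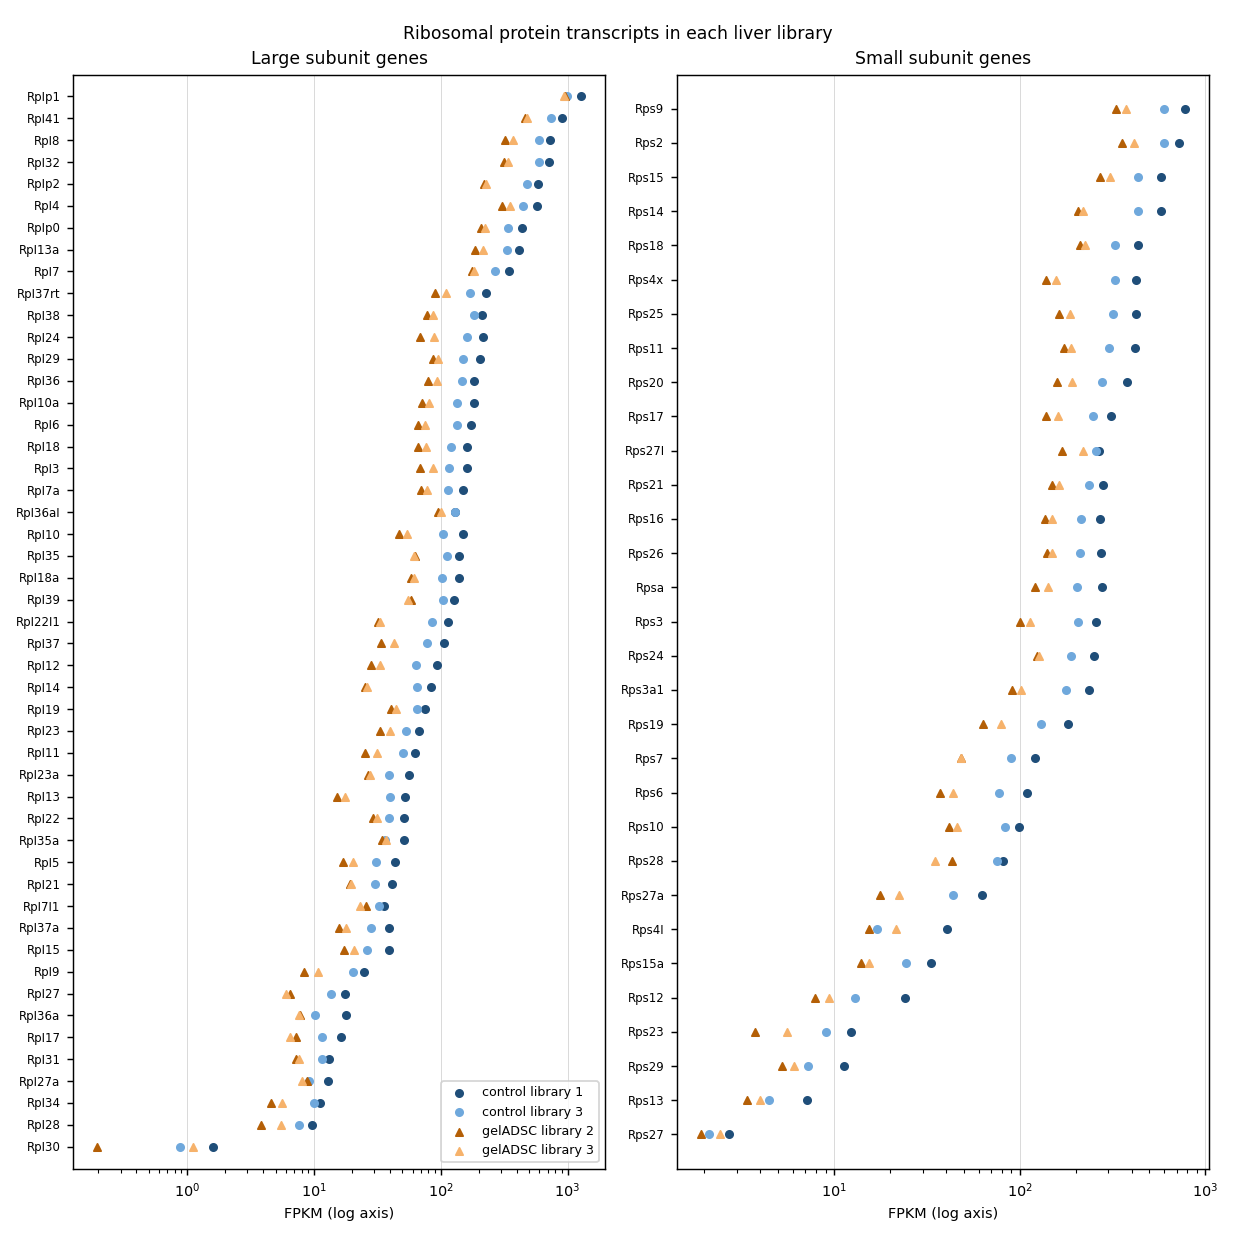
FPKM (x axis, log scale) of 80 of the 87 genes in each of the 4 libraries, ordered by the control mean, with blue circles for control and orange triangles for gelADSC (library by shade); the 5 genes at or under 0.5 FPKM in every library, and 2 others, are not shown. Most genes show both triangles to the left of both circles, and among tested genes only Rpl35a, Rps4l and Rps27 overlap.

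Ribosomal protein genes have many processed pseudogenes, and the sources used here do not say how reads of near-identical copies were counted. Of 85 members with a GENCODE M21 transcript of that symbol, 82 shared at least 1 run of 50 bases with a transcript of another gene, and in the median member 65.5% of such runs were found in no other gene. The 15 members above 0 with a control mean under 20 FPKM had a median of 11 genes that shared a run, and the 45 at 100 FPKM or over had 8. Across 82 members Spearman's rho between the number of such genes and the control mean was -0.29. The share of unique runs did not go with the level (rho -0.0085), with medians of 64.2% in the low and 66.9% in the high members. The number of genes that shared a run had a rho of 0.14 with the log2 change across 79 tested members. These are descriptions over genes that share libraries. The share of reads that each copy received was not tested, and levels of single members are uncertain for that reason. Of the 17 tested members with at least 80% unique runs 13 fell, with a median of -0.67 relative to all tested genes, and of the 18 with under 40% 17 fell, with a median of -0.75 on that scale.

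In the large subunit, the lowest log2 changes were those of Rpl22l1, Rpl14, Rpl13, Rpl12 and Rpl10. Rpl14, a protein of the solvent side, read 83.4 and 65.0 FPKM in control against 25.2 and 26.5 FPKM in gelADSC (log2 change -1.47, SE 0.20, limma adjusted p = 0.0018). Rpl13 fell from 52.0 and 39.8 FPKM to 15.3 and 17.7 FPKM (log2 change -1.42). Rpl10, which joins late in assembly and lies near the peptidyl transferase centre, fell from 149 and 104 FPKM to 46.8 and 54.7 FPKM (log2 change -1.29). In each of these the lower control library lay above the higher gelADSC library.

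In the lateral stalk, which recruits elongation factors, 3 of 4 genes fell, with a median of -1.04. Counts for this and the role lists below stand beside 82.7% of all tested members that fell (median -0.92) and 17.5% of all tested genes. Differences between a role list and the rest of the family were not tested. Its base protein Rpl12 read 93.9 and 64.0 FPKM in control against 28.4 and 33.4 FPKM in gelADSC (log2 change -1.30, limma adjusted p = 0.00575). Rplp0, which anchors the stalk, fell from 435 and 342 FPKM to 208 and 223 FPKM (log2 change -0.84, limma adjusted p = 0.0231). Rplp2 and Rplp1 form the dimers at its tip. Rplp2 fell from 586 and 478 FPKM to 219 and 227 FPKM (log2 change -1.24, SE 0.20, limma adjusted p = 0.00435). Rplp1 read 1278 and 993 FPKM in control against 952 and 943 FPKM in gelADSC (log2 change -0.25, SE 0.23, limma adjusted p = 0.443), and its direction turned with median ratio scaling. Of the 2 tip proteins, 1 was therefore called and the other was not. The difference between them was not tested.

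The proteins of the 5S particle, which bind MDM2, both fell. Rpl5 went from 43.7 and 31.1 FPKM to 16.9 and 20.5 FPKM (log2 change -0.95, limma adjusted p = 0.0191), and Rpl11 from 63.0 and 50.7 FPKM to 25.5 and 31.3 FPKM (log2 change -0.98, limma adjusted p = 0.0123). Mdm2 itself read 19.6 and 16.3 FPKM in control against 12.4 and 15.0 FPKM in gelADSC (limma adjusted p = 0.217). Around the peptide exit tunnel 6 of 7 tested genes fell, with a median of -0.76. Rpl39, deep in the tunnel, had a log2 change of -1.01 and Rpl35 of -0.99, both called. Rpl4, whose loop narrows the tunnel, read 572 and 448 FPKM in control against 305 and 354 FPKM in gelADSC, and was the 1 member of this list not called (log2 change -0.62, limma adjusted p = 0.0691).

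The large subunit genes with the smallest changes were Rplp1, Rpl35a, Rpl27a, Rpl36al and Rpl7l1, and 0 of these 5 passed the test. Rpl35a, mutated in some families with Diamond-Blackfan anaemia, read 51.4 and 36.5 FPKM in control against 34.4 and 37.0 FPKM in gelADSC (log2 change -0.27, limma adjusted p = 0.37). Its groups overlapped, and its direction turned with median ratio scaling and quantile normalization. That anaemia is a failure of red cell production caused by loss of a ribosomal protein gene copy. Of 9 genes listed here for it, the other 8 fell, where 82.7% of all tested members fell. The list was chosen with earlier results of these data known and does not hold every gene linked to the anaemia. Rps19, the gene most often mutated, went from 181 and 131 FPKM to 63.3 and 79.7 FPKM (log2 change -1.10).

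In the small subunit Rps27a, Rps4x and Rps14 were among the genes with the lowest changes. Rps27a, made as a fusion with ubiquitin, fell from 62.6 and 43.8 FPKM to 17.6 and 22.3 FPKM (log2 change -1.36). Rps4x, encoded on the X chromosome, fell from 424 and 327 FPKM to 138 and 156 FPKM (log2 change -1.34).

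All 8 genes of the decoding site and the mRNA path fell, with a median of -0.97, from Rps14 at -1.23 to Rps26 at -0.72. Among all tested members 82.7% fell, with a median of -0.92, and among all tested genes 17.5% fell. Rps14 lies on the platform near the mRNA exit. A list of 8 genes for the head region together with Rps6 had 7 that fell, with a median of -0.93. Rps6, a protein of the body phosphorylated by the S6 kinases downstream of mTOR, went from 109 and 77.5 FPKM to 37.2 and 43.6 FPKM (log2 change -1.17, limma adjusted p = 0.00782). Rps29 was not called, with 11.3 and 7.22 FPKM in control against 5.25 and 6.11 FPKM in gelADSC (log2 change -0.59, limma adjusted p = 0.106). Rps27 had the smallest change of all members, with 2.71 and 2.11 FPKM in control against 1.92 and 2.42 FPKM in gelADSC (log2 change -0.10, limma adjusted p = 0.763). Its groups overlapped, and its direction turned with median ratio scaling and without control library 1 or gelADSC library 2.

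Variant copies were split. Of the 10, only 6 were tested and 2 of these fell, with a median of -0.49 over the 6. Rpl22l1, a relative of the RNA-binding protein RPL22, had the lowest change of all members. Its level was 115 and 84.8 FPKM in control against 31.8 and 33.3 FPKM in gelADSC (log2 change -1.57, SE 0.21, limma adjusted p = 0.00164). Rpl22 read 51.8 and 39.3 FPKM in control against 29.5 and 31.5 FPKM in gelADSC (log2 change -0.55, SE 0.20, limma adjusted p = 0.0809). Rpl22l1 was thus 2.22 and 2.16 times the level of Rpl22 in the controls and 1.08 and 1.06 times in gelADSC. The ratio did not overlap between groups and was nearly the same within each group. An exact permutation test of the log2 ratio, two-sided, gave p = 0.333, the smallest that 2 against 2 libraries allow, and p = 0.4 adjusted over the 6 pairs compared.

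The other pairs moved less or the other way. Their ratios also did not overlap between groups for Rps27l (lower in gelADSC) and for Rpl7l1, Rps4l and Rpl37rt (higher in gelADSC). Each of these had the same p = 0.333 in the exact permutation test, so separation of the ratio was not particular to Rpl22l1. Rps27l, a p53-induced relative of Rps27, read 266 and 258 FPKM in control against 168 and 219.9 FPKM in gelADSC (log2 change -0.44, limma adjusted p = 0.151), far above Rps27 in every library. Rpl36al, a copy of Rpl36a, read 129 and 130.4 FPKM in control against 95.8 and 101 FPKM in gelADSC (log2 change -0.40, limma adjusted p = 0.141). Rpl7l1 read 35.5 and 32.8 FPKM in control against 25.6 and 22.9 FPKM in gelADSC, and was 0.102 and 0.123 times the level of Rpl7 in the controls and 0.145 and 0.125 times in gelADSC. Rpl37rt, a retrotransposed copy of Rpl37, fell with a log2 change of -0.97. Rps4l read 40.6 and 17.0 FPKM in control against 15.3 and 21.6 FPKM in gelADSC, with overlapping groups. Its ratio to Rps4x was 0.0958 and 0.0518 in the controls and 0.111 and 0.138 in gelADSC, without overlap. Reads of Rpl37rt and Rpl37, and of other near-identical copies, may be shared, so their ratios are uncertain.

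**Figure D4:**
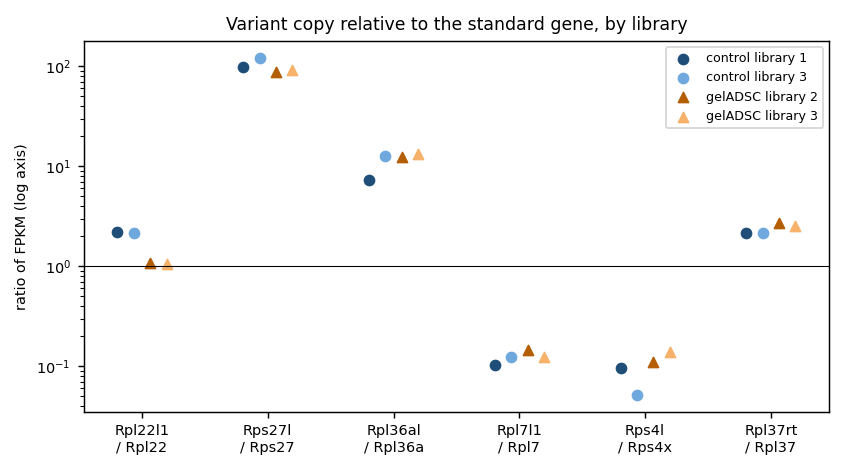
Ratio of the FPKM of a variant copy to that of its standard gene (y axis, log scale) for 6 pairs (x axis), with 1 point per library, blue circles for control and orange triangles for gelADSC. Rpl22l1 over Rpl22 lies at 2.22 and 2.16 in the controls and at 1.08 and 1.06 in gelADSC.

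Other parts of the translation machinery were examined beside the family. Fau, a fusion that carries a small subunit protein, fell from 243 and 193 FPKM to 98.8 and 97.3 FPKM (log2 change -1.14), and Gnb2l1, which encodes the ribosomal scaffold RACK1, from 533 and 406 FPKM to 187 and 225 FPKM (log2 change -1.18). Of 15 other TOP mRNAs, such as elongation factors, 7 fell and 0 rose, with a median of -0.67, where 17.5% of all tested genes fell and 6.92% rose. Tpt1 had the lowest change of these (-1.16) and Pabpc1, the poly(A) binding protein, the next (-1.04), while Eef2 (-0.38) and Eif4b (-0.26) had the smallest and were not called. Of 28 genes of ribosome assembly 12 fell and 0 rose, with a median of -0.66, against the same 17.5% and 6.92%. Eif6, which keeps the large subunit from joining too early, fell from 231 and 138 FPKM to 35.4 and 44.3 FPKM (log2 change -2.14, limma adjusted p = 0.00126), and Npm1, a nucleolar chaperone, from 125 and 64.9 FPKM to 42.2 and 46.6 FPKM (log2 change -1.01). Polr1a and Ubtf, which act in the transcription of ribosomal RNA genes, had changes of 0.13 and 0.02 and were not called.

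Proteins of the mitochondrial ribosome, a separate set made for the translation of mitochondrial mRNAs, had a median of -0.38, and 11 of 77 tested genes fell and 0 rose. That is 14.3%, near the 17.5% of all tested genes, while the share among cytosolic members was 82.7%. The difference between the sets was not tested. Of 12 genes that control TOP mRNAs or sense ribosomal proteins 3 fell and 0 rose, with a median of -0.03. Eif4ebp1, a translation repressor that mTOR phosphorylates, fell from 136 and 67.0 FPKM to 28.5 and 37.2 FPKM (log2 change -1.52), and Myc, a transcription factor that drives ribosome production, from 19.9 and 7.97 FPKM to 3.48 and 4.34 FPKM (log2 change -1.48). Larp1 (0.06), Rps6kb1 (-0.02) and Mtor (0.22) were not called.

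**Figure D5:**
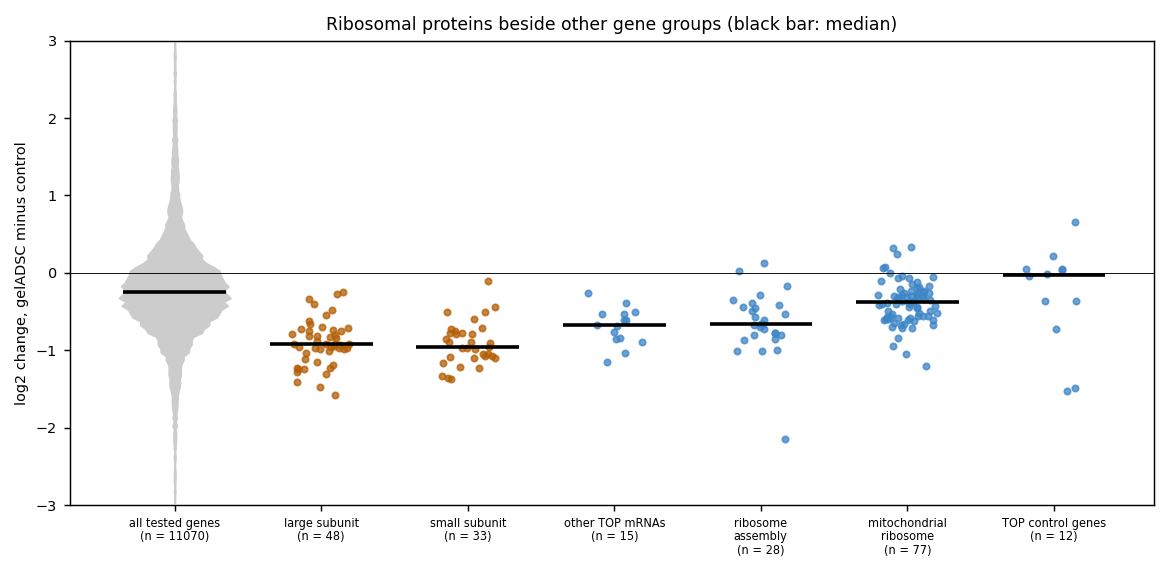
Log2 change of single genes (y axis, gelADSC minus control) for the 2 subunits and 4 other lists (points), beside the distribution of all 11070 tested genes (grey, with 92 genes beyond 3 in either direction not shown); black bars are medians. The medians are -0.92 and -0.95 for the subunits, -0.67 for other TOP mRNAs, -0.66 for ribosome assembly, -0.38 for the mitochondrial ribosome and -0.25 for all genes.

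The libraries held an estimated 18100000 to 24400000 reads, read from the smallest steps of low values. Members have short transcripts, with a median of 757 bases against 2262.5 bases for other tested genes. Among other tested genes under 700 bases the median log2 change was -0.30 and among those from 700 to under 1000 bases -0.34. Of 217 other genes with a control mean of at least 100 FPKM and a transcript under 1000 bases, 71 fell (32.7%) and 15 rose, with a median of -0.43. Among all tested genes 17.5% fell and 6.92% rose. A choice by the control mean favours genes that read higher in control. The part of transcript length and level in the ribosomal protein difference was not tested. Hepatocyte markers were abundant in every library, with 52406 and 59239 FPKM in sum in control against 41458 and 62899 FPKM in gelADSC, and 1 of 8 fell (Tat) and 1 rose (Serpina1c). Of 8 Kupffer cell markers 0 were called, with a summed level of 274 and 331 FPKM in control and 355 and 219 FPKM in gelADSC. Neutrophil and monocyte markers, with Mpo at 0 in 3 libraries, fell in 1 of 6 tested (75.4 and 70.8 against 75.3 and 27.1 FPKM in sum). The 8 lymphocyte markers summed to 0.279 and 0.258 FPKM in control and 2.16 and 3.49 FPKM in gelADSC. None of the 8 passed the filter on low values, the control sums are worth a few reads, and no direction is read from them. Bile duct markers fell in 2 of 5 tested (Spp1 and Sox9), with 169.9 and 311 FPKM in sum in control and 57.7 and 49.5 FPKM in gelADSC. Sinusoidal endothelial markers fell in 1 of 8 and rose in 2 (124 and 113 against 132 and 118 FPKM), stellate cell and fibroblast markers rose in 2 of 8 (161 and 71.8 against 125 and 102 FPKM), and markers of adipose stem cells fell in 1 of 5 tested (61.3 and 42.7 against 44.8 and 40.6 FPKM). Globin genes were listed at 0 in every library, which in an organ that holds blood can be a failed estimate and is not read as absence. Of 7 erythroid markers only 1, Alas2, was tested, and it rose. The 7 summed to 11.0 and 9.99 FPKM in control against 40.1 and 38.9 FPKM in gelADSC. The marker counts are small and stand beside the 17.5% of all tested genes that fell and the 6.92% that rose. The part of cell type shares in the ribosomal protein difference was not tested.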

How the data were processed

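RNA-seq of 4 liver samples was used (2 control, 2 gelADSC). Per the labels' protocols, libraries were made with a TruSeq stranded mRNA kit. The authors deposited 1 table without a named unit. Its values were taken as FPKM, since they are not whole numbers, their steps depend on the gene and the submitters' processing notes name Cufflinks 2.2.1, beside Trimmomatic 0.38 and TopHat2 2.1.1. Those notes name hg19, which cannot serve mouse symbols. The annotation, the strand setting and the handling of multiply mapped reads are not stated, and depth is known only as an estimate. Column numbers do not match the sample titles, so columns carry a group only.

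The 11070 genes that averaged 1 FPKM or more were tested on log2(FPKM + 1) with limma 3.58.1 in R 4.3.3 (mean-variance trend, two-sided, Benjamini-Hochberg over all tested genes, threshold 0.05). The test was run on simulated data first. Values are given per library. Runs of 50 bases were compared among GENCODE M21 transcripts, and promoter windows came from RefSeq (66 of 87 members matched). Members with values are the 5 lowest and 5 highest changes and the 3 most abundant of each subunit, role lists and variant copies; some genes that this rule names are not reported here, but they enter all fits and counts. The members and lists were chosen with earlier results of these data known. Alternatives were pseudocounts of 0.1 and 5, no filter, median ratio scaling, quantile normalization, no trend and each library left out.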

Additional observations from a re-analysis of the deposited data

How the results depend on the processing

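The number of members called higher was 0 in both subunits under all 10 alternatives. With median ratio scaling 22 large and 14 small subunit genes fell, with medians of -0.64 and -0.66, and with quantile normalization 24 and 16. Without a filter on low values the counts were 15 and 11, where 4.16% of all genes in that fit fell, against 17.5% in the main fit. Leaving out 1 library at a time gave 3 to 39 large and 1 to 29 small subunit genes called lower, with medians from -1.12 to -0.73 and from -1.13 to -0.73. The lowest counts came without control library 1, and without gelADSC library 2 they were 25 and 15. Such fits assume that the single library left in a group varies as much as the other group does. Calls among all tested genes also changed between these fits. The counts alone thus cannot show how much of the swing is particular to the family. The median of all tested genes ran from -0.35 without control library 3 to -0.14 without control library 1. Both pseudocounts and the fit without a trend left the counts within 1.5 times. Rpl22l1, Rpl14 and Rpl13 were called lower under all 10 alternatives. The direction turned for Rpl35a with median ratio scaling (0.012) and quantile normalization (0.021), for Rplp1 with median ratio scaling (0.043) and for Rps27 with median ratio scaling (0.10). With 1 library left out, Rps27 ranged from -0.23 to 0.022 and turned without control library 1 or gelADSC library 2, and Rps4l ranged from -1.11 to 0.10 and turned without control library 1. The cause was not tested. No paired analysis was possible because the columns carry numbers 1 and 3 for control and 2 and 3 for gelADSC, which do not match the numbers of the sample titles and share only 1 number. Rpl3l and Rpl39l lie at the level of a few reads at the estimated depth and cannot be compared.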

Other observations

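Rows for ribosomal protein pseudogenes, left out by the rule, held transcripts as well. Of 7 such rows 4 were tested, and all 4 fell, where 17.5% of all tested genes and 82.7% of tested members fell. Rpl14-ps1 read 445 and 335 FPKM in control against 165 and 218 FPKM in gelADSC (log2 change -1.02, limma adjusted p = 0.0169), more than Rpl14 in each library. Rps15a-ps4, Rps15a-ps6 and Rps19-ps3 had changes of -0.84, -0.83 and -1.08. Rplp2-ps1 and Rpl34-ps1 were listed at 0 in all libraries. How reads were divided between these rows and the standard genes was not tested.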
